A study of Homo sapiens with 8 samples.

Results

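The mature products of 4 miRNA hairpins, miR-345, miR-185, miR-1296 and miR-1908, were followed in H1 cells, an established line of human embryonic stem cells. The hairpins were chosen by the fall of their 5p arms between wild-type cells and cells homozygous for Dicer S1344L, so that fall is a description here and carries no test. Of the 8 arms of these hairpins, 7 were among the 594 mature miRNAs measured: all 4 of the 5p arms and the 3p arms of miR-185, miR-1296 and miR-1908. miR-345-3p was not analysed here. Small RNAs were sequenced from 2 independently isolated RNA samples of each of 4 genotypes of the same line: wild type, homozygous for Dicer-S1344L, hemizygous for Dicer-S1344L, and Dicer-null. No treatment or time course was applied, and whether a mutant line is 1 clone is not given in the sources used here.

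A miRNA hairpin leaves the nucleus as a stem with a loop, and Dicer removes the loop by cutting both strands of the stem. Its RNase IIIb domain makes the cut that ends the 5p arm, and its RNase IIIa domain makes the cut that begins the 3p arm. S1344L is a tumour hotspot substitution in the RNase IIIa domain. One arm is then usually kept in an Argonaute protein, where its seed, bases 2 to 8, finds the targets. The 4 hairpins are not relatives. miR-345 is mostly studied as a miRNA that restrains tumour growth, and miR-185 lies in the part of chromosome 22 that is lost in DiGeorge syndrome. miR-1296 has been linked to the replication helicase subunit MCM2, and miR-1908 to the lipid carrier APOE.

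The mature sequences are shown because the arm that dominates a hairpin sets the seed that is presented to targets. They are from RefSeq (GRCh38.p14), run from 5′ to 3′, and have the seed in capitals. RefSeq held 6 of the 7 measured member arms, and miR-1296-5p was the other.

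miR-345-5p: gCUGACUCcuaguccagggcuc
miR-185-5p: uGGAGAGAaaggcaguuccuga
miR-185-3p: aGGGGCUGgcuuuccucugguc
miR-1296-3p: gAGUGGGGcuucgacccuaacc
miR-1908-5p: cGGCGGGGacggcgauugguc
miR-1908-3p: cCGGCCGCcggcuccgccccg

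None of these 6 arms shared a seed with another, and in no hairpin with both arms listed did the 5p and 3p arms share one. RefSeq miRNAs with the seed of miR-185-5p (miR-4306) or of miR-1908-5p (miR-663a, miR-6787-5p and miR-10396b-5p) were not among the miRNAs analysed here. The whole hairpins of miR-345 and miR-185 follow, with both mature arms in capitals, to show what lies between the cuts.

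MIR345: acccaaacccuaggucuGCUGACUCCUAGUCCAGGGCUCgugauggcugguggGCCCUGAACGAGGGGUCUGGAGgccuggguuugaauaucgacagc
MIR185: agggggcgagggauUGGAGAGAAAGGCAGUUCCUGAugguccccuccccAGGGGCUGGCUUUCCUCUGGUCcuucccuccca

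MIR345 lies at chr14:100307859-100307956 on the plus strand, outside any other gene of GENCODE 29. MIR185 lies at chr22:20033139-20033220, plus strand, within introns of all 19 transcripts of TANGO2 that span it. MIR1296 lies at chr10:63372957-63373048, minus strand, within introns of both spanning transcripts of JMJD1C, a member of a histone demethylase family. MIR1908 lies at chr11:61815161-61815240, minus strand, in FADS1, a fatty acid desaturase gene. There it was intronic in 11 of 13 spanning transcripts and touched an exon of 2. In 1 of these the overlap was annotated as an untranslated region, and no coding sequence was touched. MIR1908 also lay opposite an intron of FADS2. No other RefSeq miRNA lay within 10 kb of any of the 4 hairpins.

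The loops between the arms were 14 bases in miR-345, 13 in miR-185 and 16 in miR-1908, against a median of 16 (quartiles 14 and 17) over the 193 hairpins that have 1 arm of each kind in RefSeq and a 5p arm in the data. The predicted folding energy per base (RNAfold) was -0.63 kcal/mol in miR-185, -0.58 in miR-1908, -0.55 in miR-1296 and -0.53 in miR-345, and the median of the 193 was -0.47. The 4 hairpins therefore all lay on the stable side, at places 11, 26, 40 and 49 from the most stable, although miR-1296 itself is not among the 193 and its place is where its value would fall. GC content was 76.2% in miR-1908-5p, 63.6% in miR-345-5p and 50% in miR-185-5p, with a median of 47.8% over 203 5p arms. Across those 203 arms GC content and the homozygous change had a Spearman rho of -0.10, and GC content and the hemizygous change from null, which holds no library used to choose the members, one of -0.22. In the latter comparison the median change was 0.55 over the 22 arms with at least 60% GC, miR-345-5p and miR-1908-5p among them, and 1.46 over the others; the part of GC content in the results was not tested. The arms share their libraries.

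Values are RPM, reads per 1e6 of a denominator that the authors set for each library, and these denominators differed from the libraries' miRNA totals. The libraries held between 137655 and 2725756 miRNA reads. That was 2.09 to 2.43 times the denominator in the wild-type, the homozygous and the second hemizygous libraries, 0.729 times in hemizygous replicate 1, and 0.118 and 0.183 times in the null libraries. Hemizygous replicate 1 therefore stood apart: over all miRNAs, replicate 2 exceeded it by 1.94 (log2, median). A count of 0 allows up to 3 reads, which is 2.14 to 3.99 RPM depending on the library. Such limits and all intervals of shares cover counting error only. The 8 stem-cell markers of the miR-302, miR-367 and miR-371 to 373 group were detected in every library, at 38.0% to 52.3% of its miRNA reads. All 8 are 3p arms, and a share of a library's own miRNA reads does not compare amounts between genotypes. Their sum was 829204 and 886974 RPM in the wild-type libraries and 61776 and 83528 RPM in the null libraries. The 11 measured of 15 markers of liver, nerve, muscle, blood, stromal and endothelial cells held 0.649% to 1.87%.

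The 5p arms are the usual guides of these hairpins, and each had between 381 and 2549 RPM in the wild type and at most 53.0 RPM in any mutant library. miR-345-5p had 1490.4 and 2549 RPM for wild type, 42.4 and 19.2 for homozygous, 8.74 and 33.0 for hemizygous and 5.72 and 10.6 for null cells. Both wild-type libraries lay far above the other 6, the hemizygous range overlapped the homozygous and the null ranges, and the homozygous and null libraries did not overlap. On the log2(RPM + 1) scale, used for all log2 changes, the difference from wild type was -6.04 (SE 1.02) in homozygous cells and -6.74 (SE 1.02) in hemizygous cells. It was the lowest of all 227 5p arms in both. These comparisons use the wild-type libraries by which the arm was chosen, so no test is given for the 5p arms in them.

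miR-185-5p had 1282 and 1260.3 RPM for wild type, 41.3 and 27.7 for homozygous, 8.02 and 37.0 for hemizygous and 7.86 and 10.6 for null cells. The wild-type pair was the tightest of the 4 arms, and the hemizygous pair the widest, spanning both the homozygous mean of 34.5 ± 9.66 (SD, n = 2) and the null mean of 9.25 ± 1.97. The homozygous change was -5.19 (SE 1.02) and the hemizygous -6.10 (SE 1.02). The reads behind the mutant values were few, from 8 to 39 per library, against 1473 and 1646 in the wild type.

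miR-1296-5p stood at 1718 and 1299 RPM for wild type, 53.0 and 30.1 for homozygous, 26.2 and 52.9 for hemizygous and 25.01 and 50.6 for null cells. The 3 mutant genotypes overlapped one another, and their means of 41.5 ± 16.2, 39.6 ± 18.8 and 37.8 ± 18.1 RPM (SD, n = 2 each) differed by less than the spread within any of them. Against the wild type the homozygous change was -5.19 (SE 1.00).

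miR-1908-5p was the least abundant of the guides, with 479 and 381 RPM for wild type, 10.6 and 12.0 for homozygous, 10.9 and 27.8 for hemizygous and 12.1 and 27.9 for null cells. Both homozygous libraries held 10 reads of it. The homozygous values lay just below both null values, and the hemizygous and null pairs overlapped. The homozygous change was -5.12 (SE 1.02). The hemizygous change, -4.53 (SE 1.02), had place 41 among the 227 5p arms, counted from the deepest fall, whereas miR-345-5p, miR-185-5p and miR-1296-5p had places 1, 4 and 21.

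**Figure D1:**
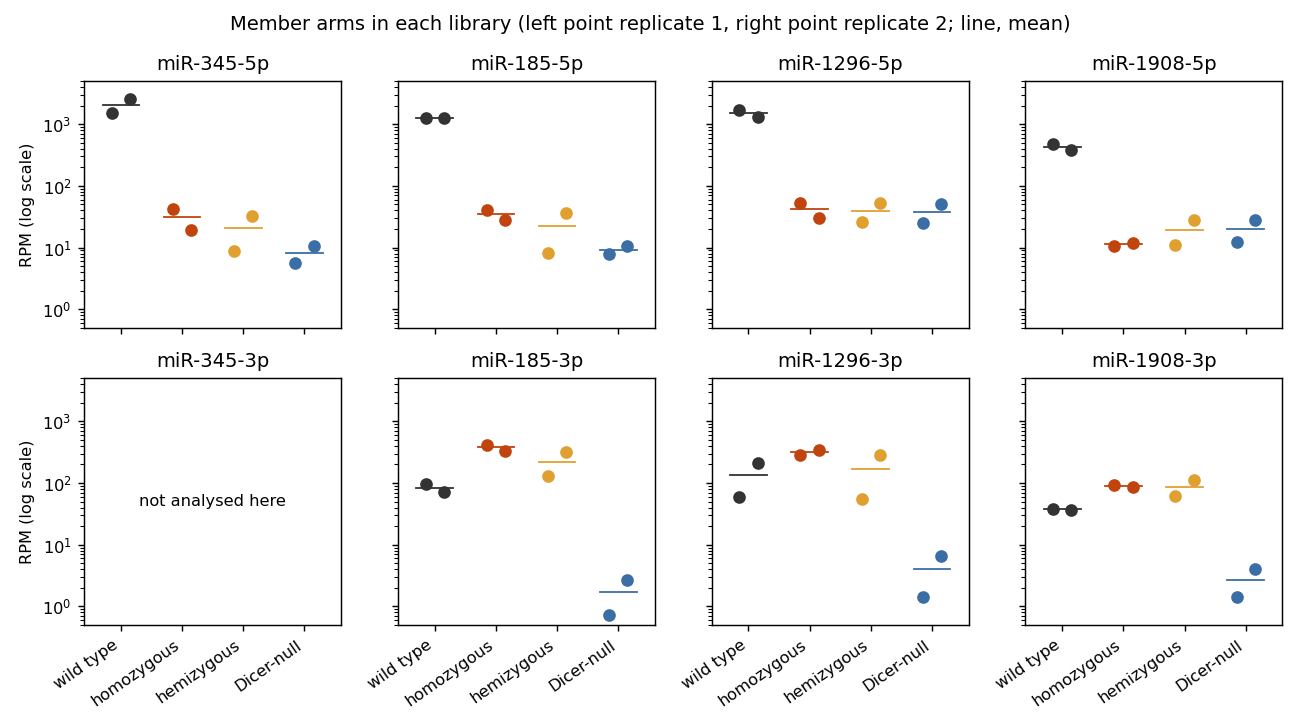
RPM (log axis) of the 7 measured member arms in each of the 8 libraries, by genotype. Each point is 1 library, replicate 1 on the left, and the line is the mean of the pair. In the upper row the wild-type points of each 5p arm stand alone at the top, and in the lower row the null points of each 3p arm stand alone at the bottom.

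In the homozygous order of all 227 5p arms, the members held places 1, 7, 8 and 10. The places between were taken by miR-7-5p (-5.66), miR-218-5p (-5.49), let-7a-5p (-5.35), miR-744-5p (-5.25), miR-525-5p (-5.20) and miR-34a-5p (-5.18), none of which is a member. Just below the last member, miR-1908-5p at -5.12, came miR-340-5p at -5.01 and miR-1307-5p at -4.95. These steps are small beside standard errors of 0.95 to 1.02. Those errors pool the spread of all genotypes and hold shifts of whole libraries that all arms share. They do not measure a difference between 2 arms, and the order within this group was not tested. The median over all 5p arms was -2.26.

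Of the wild-type level, the homozygous libraries kept 1.53% of miR-345-5p, 2.71% of miR-185-5p, 2.75% of miR-1296-5p and 2.63% of miR-1908-5p, where the median 5p arm kept 21.2%. The hemizygous libraries kept 1.03%, 1.77%, 2.62% and 4.50% of the same arms, with a median of 14.3% over all 5p arms. In the null libraries 0.405%, 0.728%, 2.51% and 4.66% were left, and the median 5p arm was at 3.07%. The 4 arms lay on both sides of the median in null cells and all far under it in the S1344L genotypes. Their place in homozygous cells follows from how the members were chosen, and all these comparisons share the wild-type libraries.

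The 3p arms, which are the minor products of these hairpins in wild-type cells, were not used to choose the members. miR-185-3p had 95.8 and 72.7 RPM for wild type, 419 and 335 for homozygous, 128 and 316 for hemizygous and 0.715 and 2.66 for null cells. Both S1344L genotypes lay above the wild type without overlap, and both null libraries, with 1 and 2 reads, lay at the limit of detection. The difference from wild type was 2.15 (SE 1.01) in homozygous cells, a description because the members were chosen in that contrast, and 1.26 (SE 1.01) in hemizygous cells.

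miR-1296-3p had 59.2 and 208 RPM for wild type, 285 and 343 for homozygous, 55.4 and 287 for hemizygous and 1.43 and 6.65 for null cells. The homozygous pair lay above the wild-type pair, while the hemizygous pair spanned it. The homozygous difference was 1.48 and the hemizygous 0.18 (SE 1.01 for both).

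miR-1908-3p, whose 95.2% GC was the highest of 269 3p arms with a RefSeq sequence, had 38.2 and 36.8 RPM for wild type, 92.2 and 86.6 for homozygous, 61.9 and 111 for hemizygous and 1.43 and 3.99 for null cells. Again both S1344L pairs lay above the wild type. The homozygous difference was 1.23 and the hemizygous 1.13 (SE 1.02 for both).

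None of the 3 member 3p arms passed the test for hemizygous against wild-type cells (limma, 0 of 3 at an unadjusted p under 0.05 and 0 of 3 with voom weights). The adjusted p was 0.380 for miR-185-3p, 0.447 for miR-1908-3p and 0.922 for miR-1296-3p, with 95% intervals of -0.72 to 3.25, -0.86 to 3.12 and -1.80 to 2.17. Of all miRNAs, 4.04% were called higher in hemizygous cells in this test. In either direction, 250 of the 594 had an unadjusted p under 0.05 (limma), and 227 were called with voom weights. The median over all miRNAs was -0.92, so on this scale the 3 arms lay 2.18, 2.05 and 1.10 above it. Without hemizygous replicate 1 that median was close to 0 (-0.00094). The arms miR-185-3p, miR-1908-3p and miR-1296-3p were then at 1.91, 1.54 and 1.36, on hemizygous replicate 2 alone. Of the 3 arms, 2 passed with scaling to the miRNA reads of each library (miR-185-3p at 1.97 and miR-1908-3p at 1.82), with 16.9% of all miRNAs called higher.

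In Dicer-null cells all 3 member 3p arms fell on the deposited scale. Against the wild type miR-185-3p was at -5.08 (SE 1.01, adjusted p = 1.28e-06), miR-1296-3p at -4.70 (adjusted p = 6.59e-06) and miR-1908-3p at -3.47 (adjusted p = 0.000883). This test called 87.4% of all miRNAs lower, and the median of all miRNAs was -4.60, from which the 3 arms differed by -0.48, -0.10 and 1.13. With libraries scaled to their own miRNA reads the median was -1.16 and only miR-185-3p still passed, at -1.89, with 48.5% of all miRNAs called lower. With median-ratio and upper-quartile scaling 0 of the 3 passed, and miR-1908-3p turned to 0.51 and 0.96. The median of all miRNAs was then -0.57 and -0.12, and the share of all miRNAs called was not counted.

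The 3p arms were higher in both S1344L genotypes than in null cells, by an amount that depended on the scaling. On the deposited scale, in the hemizygous libraries all 3 rose over the null level: miR-185-3p by 6.34 (SE 1.01, adjusted p = 6.83e-09), miR-1296-3p by 4.88 (SE 1.01, adjusted p = 6.58e-06) and miR-1908-3p by 4.59 (SE 1.02, adjusted p = 2.31e-05). In the same comparison 64.6% of all miRNAs were called higher, with a median of 3.09 over all miRNAs and 4.13 over 300 3p arms, and 273 of those 3p arms passed upward. Over the libraries' own miRNA reads the 3 differences were 3.87, 2.12 and 1.88, all past the threshold, where 35.6% of all miRNAs and 174 of 300 3p arms were called higher and the 3p median was 1.67. The median-ratio and upper-quartile scalings gave 3.86 and 3.896 for miR-185-3p, 2.10 and 2.13 for miR-1296-3p, and 1.86 and 1.89 for miR-1908-3p. A limma fit of the hemizygous and null libraries alone, on the deposited scale, gave larger adjusted p. These were 0.00092 for miR-185-3p, 0.0083 for miR-1296-3p and 0.013 for miR-1908-3p. In the homozygous libraries miR-185-3p was 7.23 (adjusted p = 1.47e-11), miR-1296-3p 6.18 (adjusted p = 6.22e-09) and miR-1908-3p 4.70 (adjusted p = 8.61e-06) above null, where 76.3% of all miRNAs were called higher. With only the homozygous and null libraries in the limma fit, the adjusted p was 5.5e-05, 0.00015 and 0.00021 in the same order. Over own miRNA reads miR-185-3p was at 3.97 and miR-1296-3p at 2.63, both still called, with 39.2% of all miRNAs called higher. The call of miR-1908-3p in that comparison was lost under own-read, median-ratio and upper-quartile scaling, with changes of 1.20, 1.08 and 1.09.

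Because the null libraries held only 3, 7 and 5 reads of these arms in all, the ratio of summed reads over summed denominators is given with its exact 95% counting interval. Hemizygous over null it was 140 (47.5 to 680) for miR-185-3p, 42.3 (20.3 to 106) for miR-1296-3p and 34.1 (14.3 to 107) for miR-1908-3p. Homozygous over null it was 273 (92.8 to 1325), 95.9 (46.2 to 239.5) and 38.5 (16.2 to 120.2). Both sets divide by the same null reads, and their sizes rest on the deposited denominators, which the intervals do not cover. Over the miRNA reads of the libraries instead, a scaling chosen for these ratios after the data were seen, hemizygous over null was 14.8 (5.03 to 72.0), 4.48 (2.15 to 11.2) and 3.61 (1.52 to 11.3). Homozygous over null was then 16.6 (5.66 to 80.7), 5.84 (2.82 to 14.6) and 2.35 (0.985 to 7.33), so the last interval included 1.

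The 5p arms behaved otherwise in the comparison that shares no library with their choice, hemizygous against null. On the deposited scale miR-345-5p differed by 1.04 (95% interval -0.95 to 3.03, adjusted p = 0.360), miR-185-5p by 0.87 (-1.13 to 2.86, adjusted p = 0.451), miR-1296-5p by 0.06 (-1.90 to 2.03, adjusted p = 0.957) and miR-1908-5p by -0.07 (-2.07 to 1.92, adjusted p = 0.952). None of the 4 was called (limma, 0 of 4 at an unadjusted p under 0.05 and 0 of 4 with voom weights), where 64.6% of all miRNAs were called higher and 0.842% lower. In either direction, 407 of the 594 miRNAs had an unadjusted p under 0.05, and 396 were called with voom weights. The hemizygous and null libraries overlapped for each of the 4. Of all 227 5p arms 80 passed upward and 2 downward in this comparison, with a median of 1.39.

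This outcome depended on the scale. Relative to the median of all miRNAs, the 4 arms lay at -2.05 to -3.17 in hemizygous against null cells on the deposited scale. Own-read, median-ratio and upper-quartile scaling remove a change shared by most miRNAs, so they compare the make-up of libraries and not amounts. Under them the median of all miRNAs in null against wild-type cells moved from -4.60 to -1.16, -0.57 and -0.12. When libraries were scaled to their own miRNA reads, all 4 made up a lower part of them than in null cells. The differences were -1.97 (miR-345-5p), -2.18 (miR-185-5p), -3.06 (miR-1296-5p) and -3.16 (miR-1908-5p), with adjusted p from 0.000733 to 0.00703 (limma). In that setting 30.6% of all miRNAs were called lower, among them 139 of 225 5p arms, and the median 5p arm was at -1.68, so miR-345-5p and miR-185-5p lay close to the typical 5p arm. Median-ratio and upper-quartile scaling gave calls for all 4 in the same direction, with 30.4% of all miRNAs called lower in each. Without hemizygous replicate 1, on the deposited scale, miR-345-5p and miR-185-5p instead passed upward, at 1.94 (adjusted p = 0.0288) and 1.90 (adjusted p = 0.0148), with 84.2% of all miRNAs called higher. Direction and calls of the 5p arms in this comparison therefore rest on how the libraries are scaled, while the 3 member 3p arms were higher in hemizygous cells and passed under each scaling tried.

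**Figure D2:**
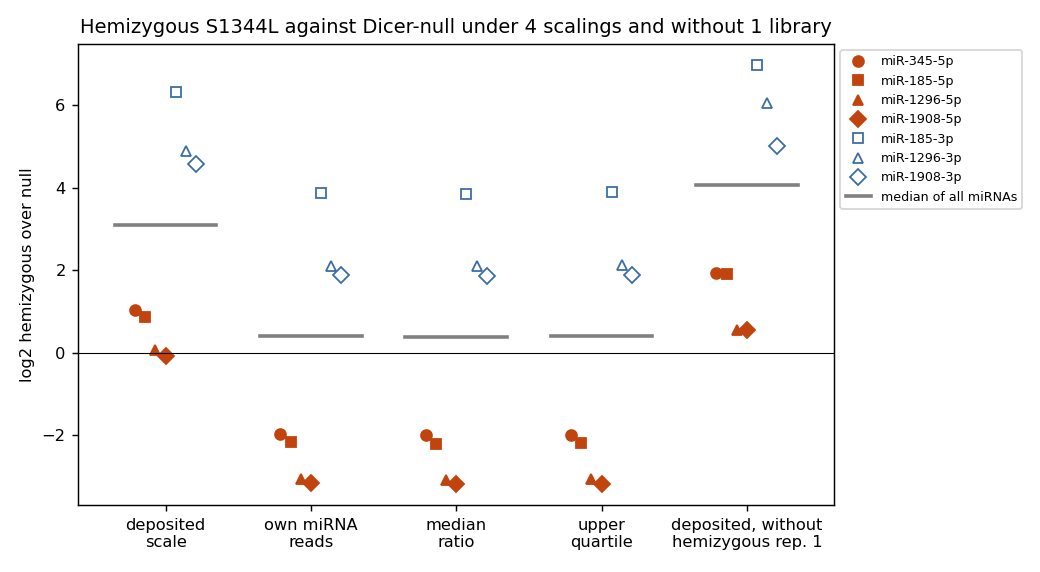
Log2 difference of hemizygous from null cells (vertical axis) for the 7 measured member arms under 4 scalings and without hemizygous replicate 1. Filled red marks are 5p arms, open blue marks are 3p arms, and the grey bar is the median of all miRNAs. The 5p marks sit on either side of 0 depending on the scaling and always below the grey bar, and the 3p marks always above it.

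The ratio of the arms within a hairpin is nearly free of library scaling. In wild-type cells the 5p arm held most reads of each hairpin. For miR-185 its share of the hairpin's reads was 93.0% (95% Wilson interval 91.8 to 94.1) and 94.5% (93.3 to 95.6) in the wild-type libraries, and 8.97% (6.63 to 12.0) and 7.62% (5.13 to 11.2) in the homozygous. It was 5.88% (3.32 to 10.2) and 10.5% (7.36 to 14.7) in the hemizygous libraries, and 91.7% (64.6 to 98.5) and 80% (49.0 to 94.3) in the null. The null shares rest on 12 and 10 reads. In reads, the predominant product of miR-185 was the arm with seed GGAGAGA in wild-type cells and the arm with seed GGGGCUG in both S1344L genotypes.

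For miR-1296 the 5p share was 96.7% (95.9 to 97.3) and 86.2% (84.5 to 87.7) for wild type, 15.7% (12.1 to 20.1) and 8.06% (5.52 to 11.6) for homozygous, 32.1% (24.2 to 41.3) and 15.6% (11.6 to 20.5) for hemizygous and 94.6% (82.3 to 98.5) and 88.4% (75.5 to 94.9) for null cells. The intervals of the 2 replicates did not overlap in wild-type, homozygous or hemizygous cells. The larger hemizygous share was that of replicate 1, the library that stood apart, whereas in miR-185 and miR-1908 replicate 2 had the larger 5p share. For miR-1908 it was 92.6% (90.4 to 94.4) and 91.2% (88.3 to 93.4) for wild type, 10.3% (5.70 to 17.9) and 12.2% (6.76 to 21.0) for homozygous, 15% (9.31 to 23.3) and 20% (13.5 to 28.6) for hemizygous and 89.5% (68.6 to 97.1) and 87.5% (69.0 to 95.7) for null cells. In none of the 3 hairpins did the S1344L shares overlap those of the wild-type or null libraries. Overlap was not counted over all hairpins, but most shifted likewise. Of 186 hairpins, limma called the 3p/5p ratio higher in 146 for hemizygous against null and in 148 for homozygous against null. Against the wild type it called 143 higher in hemizygous and 147 in homozygous cells. The shift is therefore not particular to the members. Over all hairpins with at least 10 reads, the median 5p share was 72.9% and 71.5% in the wild type, 16.9% in both homozygous libraries, 19.4% and 20.0% in hemizygous libraries, and 73.3% and 73.7% in null libraries. Whether the few null reads stem from the null cells was not tested.

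**Figure D3:**
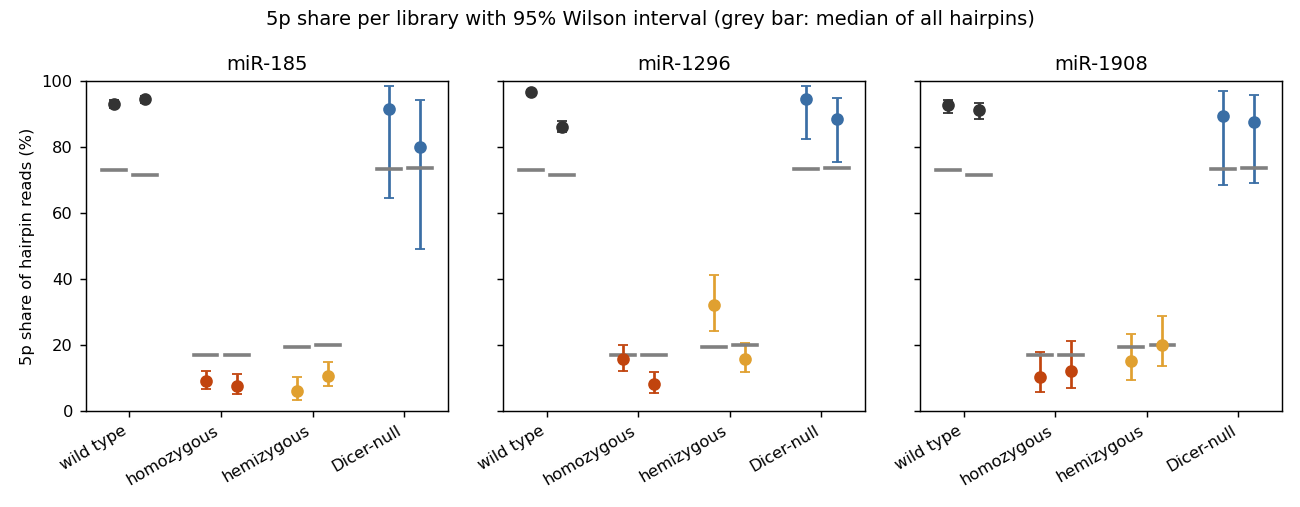
Share of a hairpin's reads that come from its 5p arm (percent, vertical axis) in each library, for the 3 hairpins with both arms measured. Points are libraries with 95% Wilson intervals and grey bars are medians over all hairpins of that library with at least 10 reads. The wild-type and null points sit at 80% or above, and the S1344L points between 5.88% and 32.1%.

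The log2 ratio of 3p to 5p was tested between hemizygous and null cells, neither of which was used to choose the members. It was higher in hemizygous cells by 5.47 for miR-185 (SE 0.45, 95% interval 4.50 to 6.44, adjusted p = 4.16e-07), by 4.82 for miR-1296 (SE 0.71, 3.29 to 6.35, adjusted p = 4.56e-05) and by 4.67 for miR-1908 (SE 0.42, 3.75 to 5.58, adjusted p = 6.55e-07). All 3 were called in limma, as were 78.5% of the 186 hairpins tested in that direction, and the median of the 186 was 2.78. The 3 hairpins held places 12, 26 and 32 from the highest. The calls held under all 18 alternatives run, leaving out any 1 library and each scaling included, with values between 3.59 and 6.09.

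Without a test, since they use libraries by which the members were chosen, the shifts toward 3p from the wild type were 7.35, 6.67 and 6.35 in homozygous cells and 7.36, 5.47 and 5.66 in hemizygous cells, for miR-185, miR-1296 and miR-1908 in turn. The medians over 186 hairpins were 3.31 and 2.89. In null cells the shifts were 1.89, 0.65 and 0.99, on 3p arms of 1 to 5 reads per library.

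**Figure D4:**
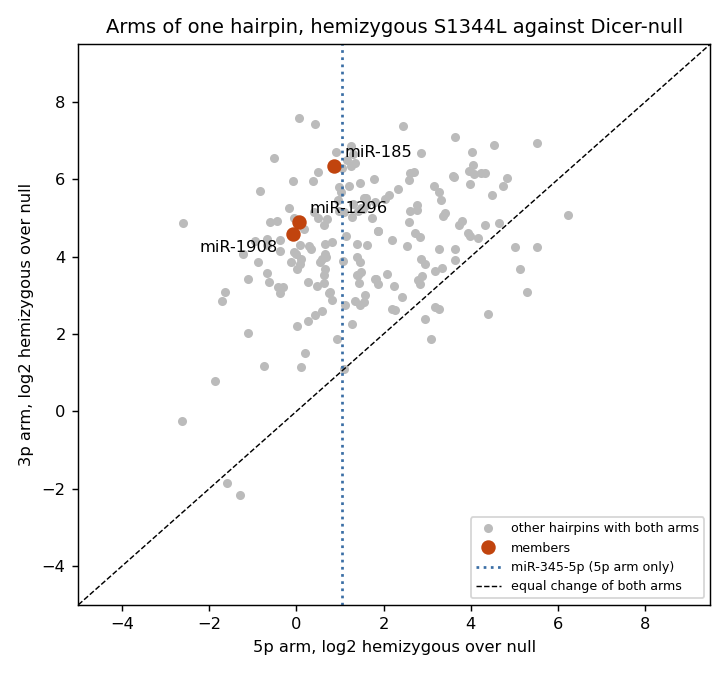
Log2 difference of hemizygous from null cells for the 5p arm (horizontal) and the 3p arm (vertical) of each of 186 hairpins on the deposited scale. Red points are miR-185, miR-1296 and miR-1908, grey points the other hairpins, the dotted line marks miR-345-5p and the dashed line equal change. The 3 members lie between -0.07 and 0.87 on the horizontal axis and between 4.59 and 6.34 on the vertical.

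In RPM, the gain of the 3p arm was small beside the loss of the 5p arm. From wild-type to homozygous cells miR-185 changed by -1237 RPM on the 5p side and 293 on the 3p side, a gain equal to 23.7% of the loss. The gain was 12.3% of the loss in miR-1296 and 12.4% in miR-1908. Both arms of miR-185 came to 1355 ± 31.5 RPM in the wild type, 412 ± 69.1 in the homozygous, 245 ± 153 in the hemizygous and 10.9 ± 3.35 in the null cells (SD, n = 2 each). The homozygous totals were 30.4%, 21.6% and 21.5% of the wild-type totals for miR-185, miR-1296 and miR-1908, and the hemizygous totals 18.0%, 12.8% and 22.6%. Since the denominators are not explained, a percentage of this kind compares scaled reads and not molecules per cell.

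Hemizygous and homozygous cells were compared to see whether 1 mutant allele alone gave other levels than a pair of them. For the 3p arms limma called none of the 3 (0 at an unadjusted p under 0.05, 0 with voom weights): miR-185-3p was at -0.89 (95% interval -2.88 to 1.09, adjusted p = 0.660), miR-1296-3p at -1.30 (-3.28 to 0.68, adjusted p = 0.660) and miR-1908-3p at -0.11 (-2.10 to 1.89, adjusted p = 0.941). The intervals allow a 2-fold change in either direction for miR-185-3p and miR-1908-3p. Over all miRNAs 0% were called in either direction (0 of 594, 7 at an unadjusted p under 0.05, 0 with voom weights). Without hemizygous replicate 2, miR-1296-3p was at -2.48, a value that rests on hemizygous replicate 1 alone, the library that stood apart. Without replicate 1 it was at -0.12. For the 5p arms the hemizygous values minus the homozygous were -0.70, -0.91, -0.10 and 0.59 for miR-345, miR-185, miR-1296 and miR-1908, given without a test, and the 2 genotypes overlapped for each of the 4.

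The 5p arms whose profile over the 8 libraries lay nearest to the mean profile of the 4 guides were let-7a-5p, miR-744-5p, miR-524-5p, miR-525-5p and miR-15a-5p. Likeness was measured as the root mean square distance in log2 units after each arm's wild-type mean was subtracted, and it was 0.32, 0.35, 0.36, 0.36 and 0.41 for these 5. The members themselves lay at 0.48 (miR-1296-5p), 0.51 (miR-185-5p), 1.05 (miR-1908-5p) and 1.06 (miR-345-5p), so the mean profile describes miR-1296-5p and miR-185-5p better than the other 2. let-7a-5p, the nearest, went from 6062 ± 814 RPM in the wild type to 147 ± 17.9 in homozygous, 139 ± 127 in hemizygous and 73.4 ± 2.23 in null cells (SD, n = 2 each). miR-744-5p went from 2344 ± 313 to 61.3 ± 15.2, 63.5 ± 48.6 and 52.2 ± 22.2 RPM.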

How the data were processed

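Small RNA libraries of 8 RNA samples were analysed. Per the labels' protocols, spike-ins were added to total RNA, linkers were ligated to both ends and products were selected on gels. The submitters' processing notes name cutadapt, limma and hg38. How the authors aligned, counted and scaled the reads is not stated in the sources used here. The deposited values are log2 RPM with 0.5 of a read added, read from the values: each gave a whole read (largest distance 7.31e-09). Tests had been planned on RPM, so reads and RPM were computed back.

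Changes are on log2(RPM + 1), fitted with limma 3.58.1 in R 4.3.3 as 1 model of group means over 8 libraries with a variance trend, two-sided, and Benjamini-Hochberg adjusted over all 594 miRNAs (or 186 hairpins for the 3p/5p ratio) at 0.05. All miRNAs passed the filter of 5 RPM in 2 libraries on the deposited scale (592 with own-read, 593 with median-ratio or upper-quartile scaling). The fit pools the spread of all genotypes, and p-values measure the spread between these samples. For single arms the prior degrees of freedom of the main fit were infinite. Standard errors and p-values of single arms in that fit therefore rest on the trend over all miRNAs, and an arm's own replicate spread did not enter. This does not hold for every alternative. With own-read scaling, for hemizygous against null, the standard error was 0.49 for miR-185-3p and 0.70 for miR-1296-3p. Folding used RNAfold 2.7.2; the fit was tested on simulated data. The depth per library and its limits stand in the report.

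Members, lists and tests were chosen with earlier results of these data known. Named beside the members are 5p arms ranked among and the 2 just below them, the 5 nearest profiles, miRNAs of the same seed and neighbours within 10 kb. The alternatives are scalings, pseudocounts, filters, variance options, voom weights, a replicate block, fits of the compared libraries and leaving out each library. miR-345-3p was not analysed here.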

Additional observations from a re-analysis of the deposited data

How the results depend on the processing

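Precision is limited by 2 libraries per genotype and by the few reads of member arms in the mutants. Counts of member arms past the threshold moved with the scaling. The own-read, median-ratio and upper-quartile scalings remove a change shared by most miRNAs and do not compare amounts. For hemizygous against null, 0 of 4 5p arms became 4 with own-read, median-ratio and upper-quartile scaling (all downward). There miR-345-5p turned to -1.97, -2.004 and -1.98 (own-read, median-ratio, upper-quartile), miR-185-5p to -2.18, -2.21 and -2.19, and miR-1296-5p to -3.06, -3.09 and -3.07. Without hemizygous replicate 2, miR-1296-5p turned to -0.43 and miR-185-5p to -0.17; without null replicate 1 miR-1296-5p turned to -0.43; miR-1908-5p turned to 0.56 without hemizygous replicate 1 and to 0.49 without null replicate 2. With any 1 library left out miR-1296-5p lay between -0.43 and 0.56, miR-185-5p between -0.17 and 1.90 and miR-1908-5p between -0.71 and 0.56. For hemizygous against wild type, 0 of 3 3p arms became 2, 2 and 3 in the same order of scalings. There miR-1296-3p turned to -0.71 without wild-type replicate 1 and to -0.99 without hemizygous replicate 2. With any 1 library left out it lay between -0.99 and 1.36. For null against wild type, 3 of 3 became 1, 0 and 0, and miR-1908-3p turned to 0.51 and 0.96 in the last 2. Of the 3 scalings, the share of all miRNAs called was counted in these 2 comparisons only for own-read scaling. It was 16.9% higher for hemizygous and 48.5% lower for null against wild type. For hemizygous against homozygous, 0 of 3 passed with each scaling, and miR-1296-3p was at -2.48 without hemizygous replicate 2, on replicate 1 alone. In that comparison miR-185-3p turned to 0.0049 (median-ratio) and 0.026 (upper-quartile). There miR-1908-3p turned to 0.67, 0.78 and 0.80 with the 3 scalings, and to 0.31 without hemizygous replicate 1 (range -0.52 to 0.31). The homozygous medians over the members, with no test, were -5.19 (5p), 1.48 (3p) and 6.67 (ratio); with median-ratio and upper-quartile scaling the 5p median was -4.73 and -4.25 and the 3p median 1.88 and 2.35, and with a library left out the 3p median lay between 1.26 and 1.96 and the ratio between 6.21 and 7.21. The counts for the 3p/5p ratio and the 3p arms of hemizygous against null (3 of 3 each) held in all alternatives run. The labels give no shared origin to equal replicate numbers, and deviations of same-numbered libraries correlated from -0.10 to 0.61 across miRNAs; with the replicate block the counts of calls were the same in all 7 tested comparisons (ratio of miR-185 at 5.47, adjusted p = 3.99e-06).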
